A study of Homo sapiens with 6 samples.

Results

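The genes described here carry glucose into the cell, break it down to pyruvate and hand pyruvate to lactate or to the mitochondrion. Of 39 genes named for these steps, 37 were among the 16792 genes of the deposited table, matched by symbol, and HK1 and SLC2A3 were not analysed here. Their RNA was measured in EndoC-βH1, which the labels write EndoCBH1, an established line of human beta cells grown from a fetal pancreas. The cells had received either siRNA against the homeobox gene MNX1 (siMNX1, 3 libraries) or a non-targeting control siRNA (siNT, 3 libraries). The labels name both groups as the same line, with genotype given as WT for siNT and as MNX1 knock down for siMNX1, and they do not say whether replicate numbers mark separate cultures or separate siRNA sequences. The spread behind each p-value is thus that between these 6 samples and may be technical, and every value comes from 1 cell line and from 5 ng of RNA a library. The question posed by the design is how lowering MNX1 changes RNA levels in beta cells.

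Beta cells use glycolysis as a sensor. Glucose enters through GLUT transporters, is phosphorylated, and its carbon runs through glycolysis to pyruvate, which is burned in mitochondria to raise ATP, close potassium channels and release insulin. Mature beta cells are known for low levels of lactate dehydrogenase A and of the high-affinity hexokinases, so that little pyruvate leaves as lactate, and for the islet glucose-6-phosphatase G6PC2, which returns glucose 6-phosphate to glucose.

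Levels are the authors' normalized counts, which are scaled between libraries and not divided by gene length. Fold changes are log2 differences of the normalized count plus 1, siMNX1 minus siNT, tested with limma over all 16792 genes, and a gene is said to have risen or fallen where its Benjamini-Hochberg adjusted p was under 0.05. Deposited totals ran from 18406479 to 18704645 per library and follow the normalization, so the read depth behind a value is unknown and no counting interval is given. Of 10 beta cell markers 10 were listed and of 5 alpha cell markers 4, against 1 of 6 acinar, 2 of 4 ductal, 2 of 5 mesenchymal, 0 of 4 endothelial and 1 of 4 immune markers. Among the beta cell markers IAPP, which encodes islet amyloid polypeptide, fell (log2 fold change -1.84, limma, adjusted p = 0.0123). MAFA, a beta cell transcription factor, rose (0.56, limma, adjusted p = 0.0131). The summed level of all 10 beta cell markers was 143321 to 149242 in siNT libraries and 154108 to 164680 in siMNX1 libraries. Insulin (INS) made up most of this sum, with means of 110539 in siNT and 125386 in siMNX1. INS was not called (log2 fold change 0.18, limma, adjusted p = 0.0656). For 7 of these 10 markers the change was negative, and the middle value over the 10 was -0.05. Limma called 0 of the 4 alpha cell markers, and 0 at an unadjusted p under 0.05. Of 4 delta cell markers, 2 rose and 1 fell, and the summed level of the 4 went from between 1348 and 1404 in siNT libraries to between 1959 and 2035 in siMNX1 libraries. The part of these markers in the results was not tested. In bulk RNA a change in the number of cells of a type and a change in RNA per cell cannot be told apart. MNX1 itself had 2039, 2033 and 1988 normalized counts in siNT and 1885, 1708 and 1751 in siMNX1, in replicate order here and throughout. Its log2 fold change was -0.18 (limma, adjusted p = 0.116), not past the threshold. The targeted transcript was thus only slightly lower in the siMNX1 libraries, with no overlap between the groups.

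Among the 37 genes, 7 fell and 0 rose with MNX1 siRNA (limma, adjusted p under 0.05), where 1.33% of all genes tested fell, 1.99% rose and 3.32% did either. The 7 were the islet glucose-6-phosphatase G6PC2, the glycolytic enzymes GPI, TPI1, GAPDH, ENO1 and ENO2, and the lactate dehydrogenase subunit LDHB. At an unadjusted p under 0.05 the counts were 13 lower and 0 higher, against a background of 8.56% and 9.81%. The siMNX1 libraries lay wholly below the siNT libraries for 12 of the 37 genes and wholly above for 1, where the background was 12.1% and 12% of all genes. The median log2 fold change was -0.17 over the 37 genes and -0.0004 over all genes tested. Every one of the 27 genes from glucose entry to lactate dehydrogenase had a log2 fold change below 0, where 50.1% of all genes did, and their median was -0.24. BPGM was at -0.0005 and crossed to 0.0013 under TMM scaling, another way of putting libraries on 1 scale; the 3 scalings tried turned no other of the 27. With each library left out in turn, 22 of the 27 stayed below 0, and HK2 (up to 0.1409), BPGM (0.058), TIGAR (0.0376), PFKFB4 (0.0096) and PKM (0.0079) crossed it. The 10 genes of mitochondrial pyruvate use had a median of -0.04, with 7 below 0, and limma called 0 of them at the adjusted threshold and 0 at an unadjusted p under 0.05. The count of 7 depended on the libraries. It was 2 to 4 with each library left out in turn, where 0.387% to 1.07% of all genes fell, and it was 0 with the library of highest mitochondrial RNA share removed from each group (siNT replicate 2 and siMNX1 replicate 3), where 0.161% fell.

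**Figure D1:**
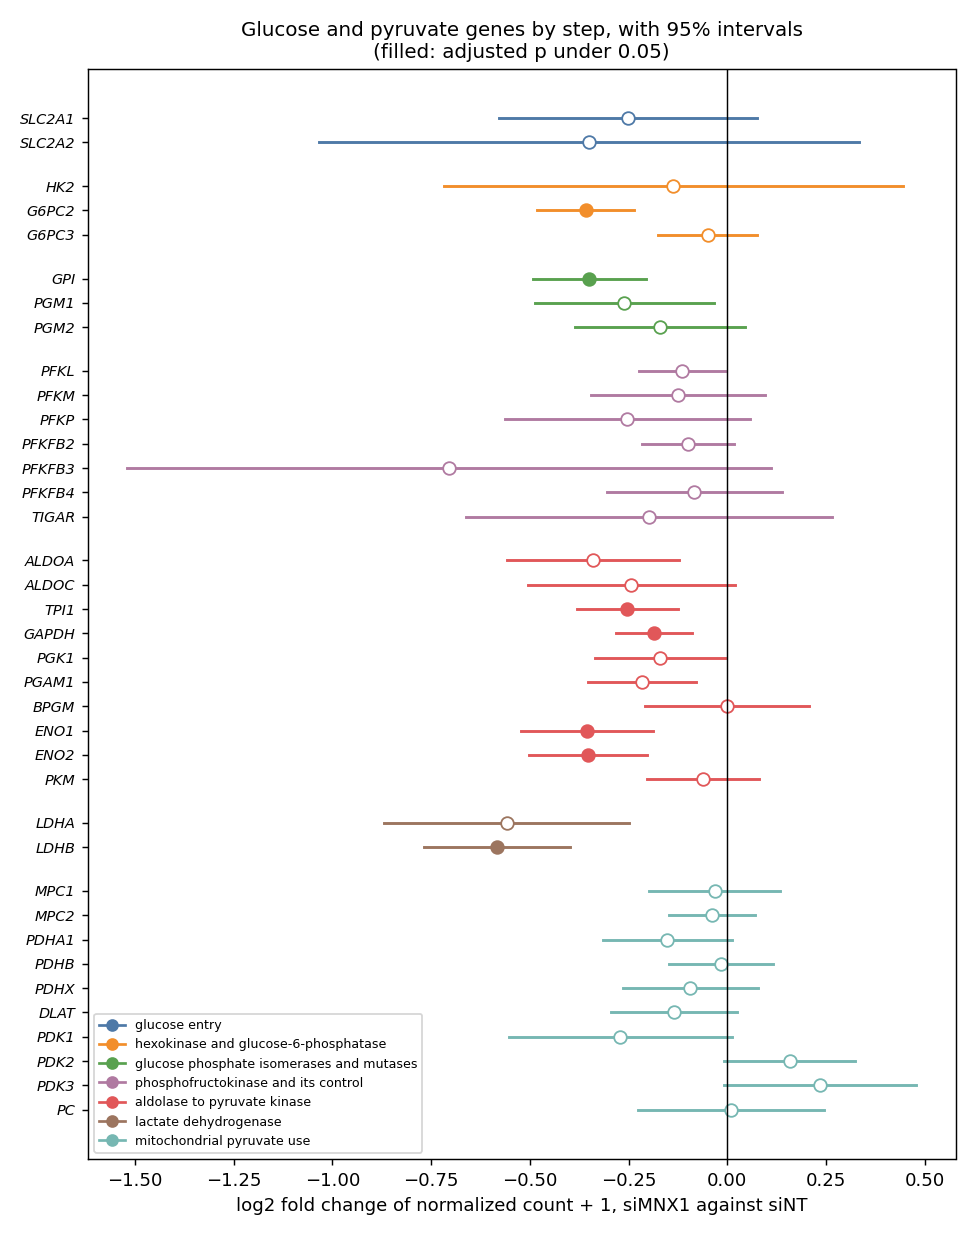
Log2 fold change of each of the 37 genes (x axis, log2 of normalized count + 1, siMNX1 against siNT, 3 libraries in each group) with its 95% limma interval, ordered and coloured by step of the pathway on the y axis; filled points passed an adjusted p of 0.05. From SLC2A1 to LDHB 27 points lie below 0, many with intervals that include 0 and BPGM at -0.0005, which turns to 0.0013 under TMM scaling, and the 10 genes of mitochondrial pyruvate use lie on both sides of it.

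The promoters of the members were searched for letters that known regulators read, since many members were lower together. The RefSeq promoter table (GRCh38.p14) held 36 of the 37 genes, and for each the listed start nearest to that of the principal GENCODE transcript was taken, which for GAPDH lay 1337 bases away. The 250 bases before it were searched on both strands. Hypoxia-inducible factors read a core of ACGTG or GCGTG, MYC and ChREBP read E-boxes such as CACGTG, which contains the ACGTG core, and homeobox factors including MNX1 read sites around TAATTA. A hypoxia core lay in 25 of 36 member promoters (69.4%), in 54.1% of the promoters of genes tested and in 43.2% of all 35116 promoters. CACGTG lay in 9 of 36 (25%), against 8.08% of the promoters of genes tested and 6.34% of all promoters, and TAATTA in 0 of 36, against 2.19% and 4.35%. The members enter with a single chosen start each, out of 63 listed for them, while both backgrounds count every listed start. The shares are thus not of like sets. Among the 7 genes that fell, a hypoxia core was found for ENO1, ENO2, GAPDH and GPI and not for G6PC2, LDHB and TPI1, a share of 57.1%, against 21 of 29 members that were not called (72.4%). CACGTG lay in 14.3% of the former and 27.6% of the latter. The lactate dehydrogenase pair, whose log2 fold changes were -0.56 for LDHA and -0.58 for LDHB, differed in these letters. The following 30 bases, 5′ to 3′ on the gene's strand with the core letters, as read on either strand, in capitals, are shown only for promoters that hold a core: those of the genes that fell and, as the paralogue of LDHB and the main aldolase, for LDHA and ALDOA.
LDHA (chr11:18394470-18394499, plus strand): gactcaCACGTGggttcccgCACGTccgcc
ALDOA (chr16:30064373-30064402, plus strand): tggcagggaggcCACGTGatccgagtcccc
GAPDH (chr12:6535171-6535200, plus strand): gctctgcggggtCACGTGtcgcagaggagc
ENO1 (chr1:8878742-8878771, minus strand): cggagctgaggggGCGTGccccggaggcgg
ENO2 (chr12:6914449-6914478, plus strand): cacccgcgctcgtACGTGcgcctccgccgg
GPI (chr19:34364817-34364846, plus strand): aacactgcctgtaACGTGgaaggtgttcga
A match says only that these letters occur there.

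Glucose entry gave no call. SLC2A1, which encodes the transporter GLUT1, had 2684, 1991 and 1886 normalized counts in siNT and 1988, 1488 and 2019 in siMNX1. Its groups overlapped, and siNT replicate 1 was the highest library. The log2 fold change was -0.25 (95% interval -0.58 to 0.07, limma, adjusted p = 0.397). SLC2A2, which encodes GLUT2, the main transporter of rodent beta cells, was nearly absent at 36.8 ± 9.70 in siNT and 29.01 ± 9.44 in siMNX1 (mean ± SD, n = 3, as for all values given this way). Per kilobase of the principal GENCODE transcript, SLC2A1 stood at 596 ± 118 and SLC2A2 at 11.5 ± 3.02 normalized counts in siNT, so GLUT1 was the main one of these 2 transporters in the line.

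At the first phosphorylation, the gene that fell encodes the opposing phosphatase. G6PC2 (ENSG00000152254, chromosome 2, 168901240 to 168910000 of GRCh38, plus strand) stood at 10746, 11809.5 and 10341 normalized counts in siNT and 8725, 8622 and 8272 in siMNX1. Every siMNX1 library was below every siNT library, and the mean fell by 22.1%, from 10966 ± 758 to 8539.9 ± 237. The log2 fold change was -0.36 (SE 0.0545, limma, adjusted p = 0.00855). This call was kept with each of the 6 libraries left out in turn (adjusted p from 0.0167 to 0.0328) and ended without siNT replicate 2 and siMNX1 replicate 3 together (0.0965) and in a fit without a variance trend. G6PC2 overlaps SPC25 on the opposite strand, and the handling of strand is not given in the sources used here, but SPC25 was at 366 and 405 normalized counts in siNT and siMNX1, far under G6PC2. G6PC3, the glucose-6-phosphatase of most tissues, had 1198 ± 33.1 and 1158 ± 9.51, a log2 fold change of -0.05 with an interval of -0.17 to 0.08. HK2, a high-affinity hexokinase, was low at 64.1 ± 23.9 and 55.9 ± 6.56, and its interval ran from -0.72 to 0.44. G6PC2 was the only one of these 3 genes that passed the test, and the differences between their responses were not tested.

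Glucose-6-phosphate isomerase, which makes fructose 6-phosphate, fell. GPI (ENSG00000105220, chromosome 19, 34359480 to 34402413, plus strand) had 5553, 5123 and 5098 normalized counts in siNT and 4219.7, 3778 and 4397 in siMNX1. The groups did not overlap, and the mean fell by 21.4% (log2 fold change -0.35, SE 0.0640, limma, adjusted p = 0.0203). The GPI call was kept only without siMNX1 replicate 2 or siMNX1 replicate 3, with adjusted p from 0.0232 to 0.0725 over the 6 left-out libraries. The phosphoglucomutases, which link glucose 6-phosphate to glycogen, did not pass. PGM1 had 534, 574 and 483 in siNT and 426, 407 and 496 in siMNX1, a log2 fold change of -0.26 (limma, adjusted p = 0.203), with siMNX1 replicate 3 inside the siNT range. PGM2 had a log2 fold change of -0.17 (adjusted p = 0.385 by limma).

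At phosphofructokinase, the committed and most regulated step, limma called 0 of 7 genes, and 1 (PFKL) had an unadjusted p under 0.05. PFKL, the liver-type subunit and per kilobase the most abundant of the 3, had 5074, 4911 and 4765 normalized counts in siNT and 4500.3, 4396 and 4733 in siMNX1. The groups just failed to overlap, for a log2 fold change of -0.11 (95% interval -0.22 to -0.01, limma, adjusted p = 0.245). The muscle-type PFKM and platelet-type PFKP had log2 fold changes of -0.13 and -0.25, and both sets of libraries overlapped. Per kilobase, the siNT levels were 1688 ± 52.9 for PFKL, 568 ± 70.2 for PFKM and 250.4 ± 41.5 for PFKP, an order in which neighbours were separated by more than their SD. The bifunctional enzymes that make and remove fructose 2,6-bisphosphate, the activator of phosphofructokinase, were carried mostly by PFKFB2 and PFKFB4. PFKFB2 had 5570.2, 5690.4 and 5881 in siNT and 5425, 5573 and 5012 in siMNX1, a log2 fold change of -0.10 whose interval ran from -0.22 to 0.02. PFKFB4 was at -0.08 (95% interval -0.30 to 0.14). PFKFB3 had the lowest fold change of all members at -0.70, but at only 22.1 ± 9.33 and 12.7 ± 3.02 normalized counts its interval ran from -1.52 to 0.11. TIGAR, a fructose-2,6-bisphosphatase, had 161 ± 26.3 and 142 ± 37.1 and did not pass.

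The steps from aldolase to pyruvate kinase held 4 of the 7 falls among 10 genes, where 1.33% of all genes tested fell. At an unadjusted p under 0.05, 7 of these 10 were lower, where 8.56% of all genes tested were. TPI1 (ENSG00000111669, chromosome 12, 6867119 to 6870948, plus strand), which interconverts the triose phosphates, had 10789, 10718 and 10216 normalized counts in siNT and 9333, 8156 and 9176 in siMNX1. Its mean fell by 15.9% (log2 fold change -0.25, SE 0.0566, limma, adjusted p = 0.0440). GAPDH (ENSG00000111640, chromosome 12, 6533927 to 6538374, plus strand), the NADH-producing dehydrogenase and the most abundant member, had 42577, 40426 and 40825 in siNT and 36919, 34746 and 37232 in siMNX1. The mean fell by 12.1% (log2 fold change -0.19, SE 0.0426, limma, adjusted p = 0.0484). In both genes every siMNX1 library lay under every siNT library, with siMNX1 replicate 2 the lowest. Neither call was kept with any of the 6 libraries left out (adjusted p from 0.0615 to 0.141 for TPI1 and from 0.0790 to 0.146 for GAPDH), and GAPDH, often used as a reference gene, sat at the edge of the threshold.

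Both enolase genes, whose products make phosphoenolpyruvate, fell, with log2 fold changes that were equal to 2 decimals. ENO1 (ENSG00000074800, chromosome 1, 8861000 to 8879250, minus strand), the form of most tissues, had 13253, 11907 and 11623 normalized counts in siNT and 10450.4, 8609.6 and 9755 in siMNX1. ENO2 (ENSG00000111674, chromosome 12, 6913745 to 6923698, plus strand), the form of neurons and endocrine cells, had 2733, 3162 and 2969 in siNT and 2359, 2169 and 2408 in siMNX1. The log2 fold changes were -0.35 (SE 0.0746, limma, adjusted p = 0.0354) for ENO1 and -0.35 (SE 0.0666, limma, adjusted p = 0.0225) for ENO2, with no overlap between groups in either gene. ENO2 overlaps LRRC23 on the same strand, whose mean was 181. Within a library, the log2 ratio of ENO2 to ENO1 was -2.05 ± 0.196 in siNT and -2.05 ± 0.0844 in siMNX1, a difference of 0.0020 (exact two-sided permutation test, p = 1, where 3 against 3 libraries allow no p under 0.1). The ENO1 call was kept only without siMNX1 replicate 1, and the ENO2 call only with siNT replicate 1 or either of siMNX1 replicates 2 and 3 left out.

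The other 6 genes of this stretch did not pass the threshold. ALDOA, the main aldolase, had 9210.2, 8007 and 8018 in siNT and 7253, 5614 and 7172 in siMNX1, a log2 fold change of -0.34 (limma, adjusted p = 0.0962). PGAM1, phosphoglycerate mutase, had 4691, 4329 and 4078 in siNT and 3935, 3622 and 3708 in siMNX1, a log2 fold change of -0.22 (limma, adjusted p = 0.0918). For ALDOA and PGAM1 the groups did not overlap. PGK1, the first ATP-producing step, had 11934, 10397 and 10040.1 in siNT and 10377, 9008 and 9359 in siMNX1; its log2 fold change was -0.17, and siMNX1 replicate 1 lay within the siNT range (limma, adjusted p = 0.253). ALDOC was at -0.24 (95% interval -0.51 to 0.02). PKM, the pyruvate kinase M gene, had 13102, 12310.4 and 11876 in siNT and 12595, 10817 and 12381 in siMNX1. Its log2 fold change was -0.06 with an interval of -0.20 to 0.08, and the table cannot tell its M1 and M2 forms apart. BPGM, which makes 2,3-bisphosphoglycerate, had 339.8 ± 26.3 and 339 ± 14.4.

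Lactate dehydrogenase, which turns pyruvate to lactate and back, had the log2 fold changes farthest from 0 after the scarce PFKFB3. LDHB (ENSG00000111716, chromosome 12, 21635342 to 21757857, minus strand) had 773, 768 and 785 normalized counts in siNT and 567, 469 and 520.2 in siMNX1. The siNT libraries had an SD of 8.48 around a mean of 776, and the mean fell by 33.1% in siMNX1 (log2 fold change -0.58, SE 0.0821, limma, adjusted p = 0.00549). The call was kept with each of the 6 libraries left out (adjusted p from 0.0094 to 0.0378) and ended without siNT replicate 2 and siMNX1 replicate 3 together (0.0815). LDHA (ENSG00000134333, chromosome 11, 18394388 to 18408425, plus strand) had 4561, 3688 and 3091 in siNT and 2826, 2140.1 and 2690.4 in siMNX1. Every siMNX1 library was below every siNT library with a difference in means of -32.5%, yet the siNT SD was 739. The log2 fold change of -0.56 (SE 0.139) missed the threshold (limma, adjusted p = 0.0622). With each library left out, LDHA passed only without siNT replicate 3, its lowest control (log2 fold change -0.69, limma, adjusted p = 0.0484), and not in the other 5 fits (adjusted p from 0.095 to 0.153). Without siNT replicate 1 its log2 fold change was -0.41. The log2 ratio of LDHB to LDHA within a library was -2.27 ± 0.291 in siNT and -2.29 ± 0.0931 in siMNX1, a difference of -0.02 (exact two-sided permutation test, p = 0.9). Per kilobase LDHA stood at 1564.5 ± 306 and LDHB at 504 ± 5.51 in siNT, so LDHA was the more abundant subunit in this line.

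**Figure D2:**
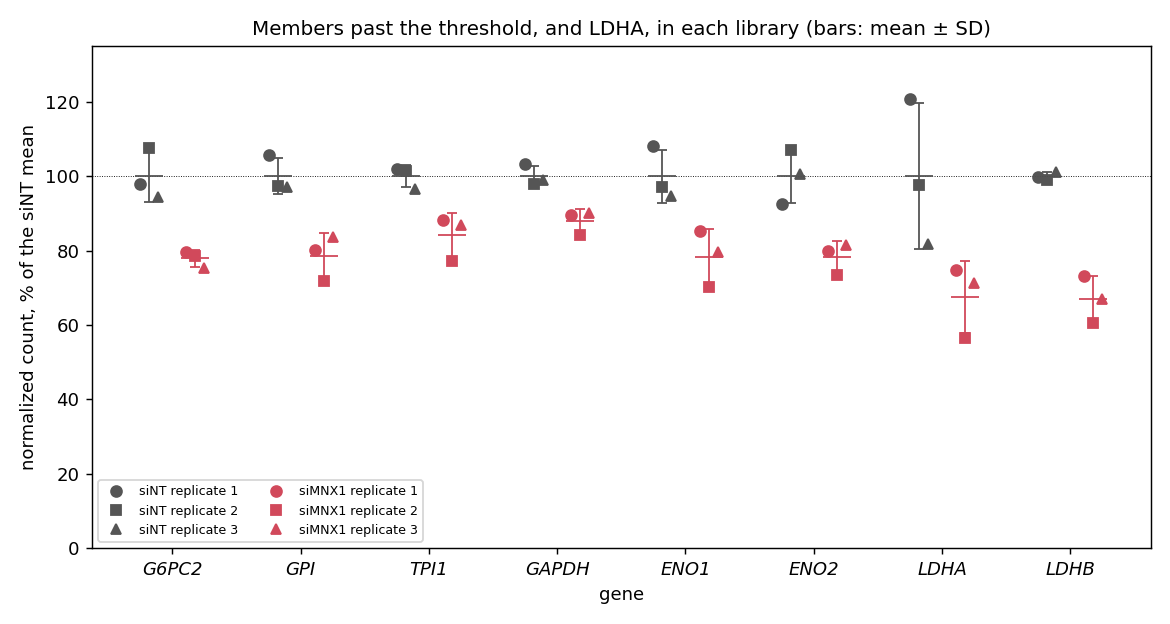
Normalized counts of the 7 genes that fell and of LDHA in each library, as a percentage of the gene's siNT mean (y axis, from 0); points are libraries, shaped by replicate number, and bars are mean ± SD of 3 libraries. In each of the 8 genes the siMNX1 points lie below all siNT points, and the siNT points of LDHA are spread widest.

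Mitochondrial use of pyruvate gave no call. The summed normalized counts of its 10 genes were 12151 ± 295 in siNT and 11995 ± 98 in siMNX1, a difference of -1.28%. Another sum took 13 glycolytic genes: GPI, PFKL, PFKM, PFKP, ALDOA, ALDOC, TPI1, GAPDH, PGK1, PGAM1, ENO1, ENO2 and PKM. That sum went from 116483 ± 5033 in siNT to 100595 ± 6056 in siMNX1, a difference of -13.6%. These sums are descriptions and were not tested. The pyruvate carrier of the inner membrane is formed by MPC1 and MPC2. MPC2 had 3104, 3049.6 and 2944 in siNT and 3025, 2980.4 and 2849.8 in siMNX1, and the intervals were -0.15 to 0.07 for MPC2 and -0.20 to 0.13 for MPC1. The pyruvate dehydrogenase complex makes acetyl-CoA. Its subunit genes PDHA1, PDHB, PDHX and DLAT had log2 fold changes of -0.15, -0.02, -0.09 and -0.13, none past the threshold by limma. Pyruvate carboxylase (PC), which feeds oxaloacetate to the citric acid cycle and is abundant in islets, had 459 ± 43.6 and 462 ± 49.3 with an interval of -0.23 to 0.24.

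The kinases that switch off pyruvate dehydrogenase had log2 fold changes of both signs, none past the threshold. PDK1 had a log2 fold change of -0.27 (95% interval -0.55 to 0.01) and PDK3 one of 0.24 (-0.01 to 0.48). PDK2 had 509, 529 and 519 in siNT and 615, 556 and 569 in siMNX1, the single member whose siMNX1 libraries were all above its siNT libraries (log2 fold change 0.16, limma, adjusted p = 0.293). Limma called 0 of the 3 kinases at the adjusted threshold and 0 at an unadjusted p under 0.05. The log2 ratio of PDK2 to PDK1 went from 0.51 ± 0.214 to 0.94 ± 0.106, a difference of 0.43 with no overlap between groups (exact two-sided permutation test, p = 0.1, the smallest these groups allow, and 0.4 after Benjamini-Hochberg adjustment over 8 pairs of members).

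Libraries of the same group differed from one another in these genes. Of the 37 members, siMNX1 replicate 2 was the lowest of the 3 siMNX1 libraries in 24 (64.9%), against 34.0% of all genes, and siNT replicate 1 was the highest siNT library in 21 (56.8%), against 35.3% of all genes. SiNT replicate 3 was the lowest siNT library in 19 members, and siMNX1 replicate 1 the highest siMNX1 library in 20. In a list of 18 hypoxia-induced genes outside glycolysis, siNT replicate 1 was highest of its group in 13 and siNT replicate 3 lowest in 13. There siMNX1 replicate 2 was lowest in 11 (61.1%), and siMNX1 replicates 1 and 3 were each highest in 9. In the 21 genes of pyruvate dehydrogenase partners and the citric acid cycle, siMNX1 replicate 2 was also lowest, in 12 (57.1%), and siNT replicate 1 was highest in 7. Mitochondrial RNA made up 5.39% of siNT replicate 1, 5.58% of siMNX1 replicate 2 and 5.39% to 6.81% over all libraries. The part of these differences between libraries in the lower group means was not tested beyond leaving libraries out. Without siMNX1 replicate 2 the median log2 fold change of the members was -0.13. In that fit 4 members fell (G6PC2, GPI, ENO2 and LDHB), where 1.07% of all genes tested fell. Without siNT replicate 1 the same count was 3 (G6PC2, ENO2 and LDHB), where 0.476% of all genes tested fell.

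**Figure D3:**
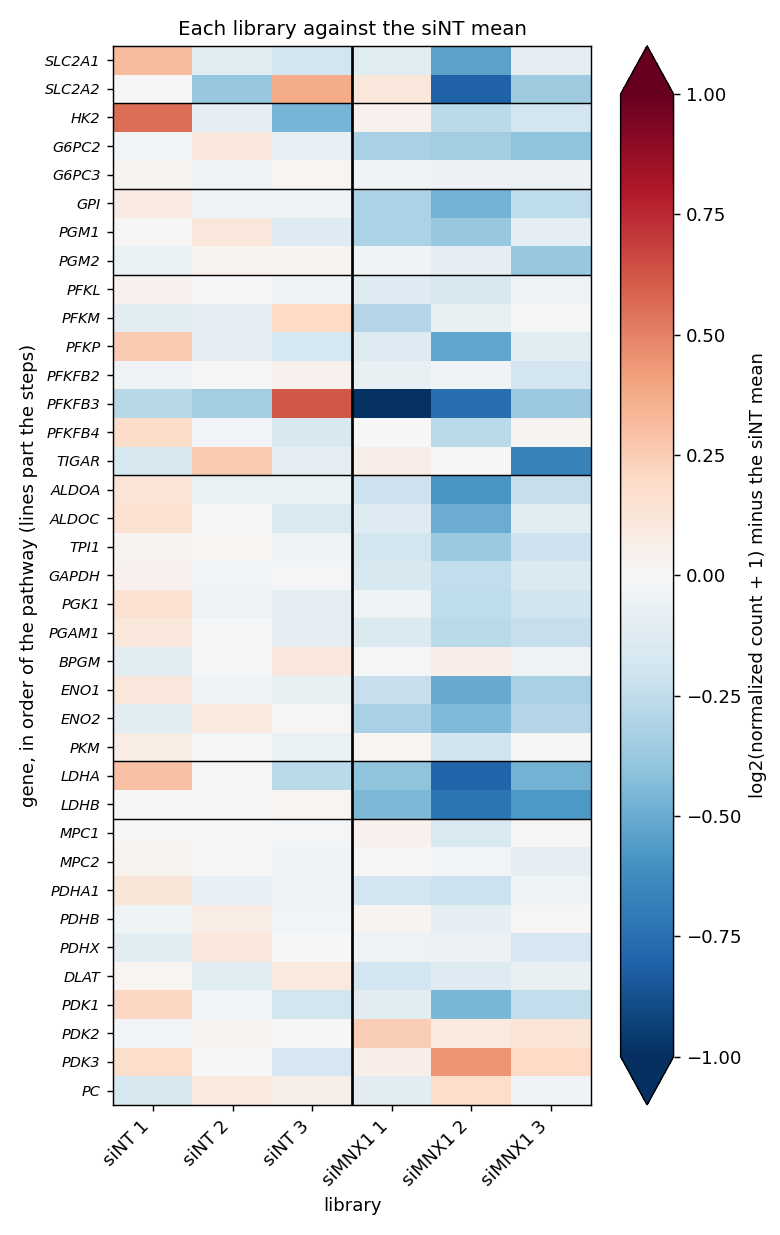
Difference of each library (columns) from the siNT mean in log2(normalized count + 1) for the 37 genes (rows, in pathway order, steps parted by lines); red is higher and blue lower. The siMNX1 columns are blue over most rows down to LDHB, the siMNX1 replicate 2 column most deeply, and mixed over the mitochondrial rows.

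Genes of adjoining pathways were listed with earlier results of these data known. Among 16 other forms of the same steps, 1 rose and 0 fell, where 1.99% of all genes tested rose and 1.33% fell. Their median log2 fold change was 0.08. The gene that rose was PKLR, the liver and red cell pyruvate kinase, which had 982, 926 and 915 normalized counts in siNT and 1335, 1115 and 1207 in siMNX1 (log2 fold change 0.37, SE 0.0761, limma, adjusted p = 0.0327). PKLR thus rose where 5 other glycolytic enzymes fell, with no overlap between groups, but its call was kept only without siMNX1 replicate 2 among the 6 left-out libraries (adjusted p up to 0.135). Of 6 genes listed under lactate and pyruvate export, 1 rose and 0 fell, against the same shares of all genes. The call was for SLC16A7, which encodes the monocarboxylate transporter MCT2. SLC16A7 had 358, 356 and 402 in siNT and 599, 669.6 and 509 in siMNX1 (log2 fold change 0.66, SE 0.109, limma, adjusted p = 0.0121). The direction in which MCT2 carries its substrates was not measured. The SLC16A7 call ended with siMNX1 replicate 1 left out, or either of siNT replicates 1 and 2 (adjusted p up to 0.058). SLC16A7 and PKLR lay above all siNT libraries in every siMNX1 library.

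Limma called 0 genes in each of the other 7 lists, and the counts at an unadjusted p under 0.05 are given with each, where 8.56% of all genes tested were lower and 9.81% higher. Of 21 genes of pyruvate dehydrogenase partners and the citric acid cycle, 4 were lower and 0 higher unadjusted, and the median log2 fold change was -0.02. Its most abundant members were IDH2, with a log2 fold change of -0.002, and citrate synthase (CS), with -0.15 (limma, adjusted p = 0.142). Of 9 genes of the NADH shuttles, 1 was lower and 1 higher unadjusted; GOT2 and GPD1 were at 0.09 and 0.03. Pyruvate cycling, the export of mitochondrial carbon linked to insulin release, had 4 lower and 1 higher of 8 unadjusted and a median of -0.16, with ACLY at 0.08 and the citrate carrier SLC25A1 at -0.19 (limma, adjusted p = 0.0713). The pentose phosphate pathway had 2 lower and 0 higher of 8 unadjusted and a median of -0.105, with TALDO1 at -0.09 and TKT at -0.16. Of 8 genes of glycogen and sugar nucleotides, 0 were lower and 2 higher unadjusted, with PYGB at -0.01 and GFPT1 at 0.15. The 16 measured regulators of glycolytic genes had 0 of either direction even unadjusted and a median of 0.03. Among them MLXIPL, the glucose-responsive factor ChREBP, had a log2 fold change of 0.12 (95% interval -0.10 to 0.35) and HIF1A, the hypoxia-inducible factor, one of 0.09 (-0.03 to 0.21). The 18 hypoxia-induced genes outside glycolysis had 3 lower and 1 higher unadjusted and a median of -0.06, with VEGFA at 0.02 and ERO1A at -0.003.

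**Figure D4:**
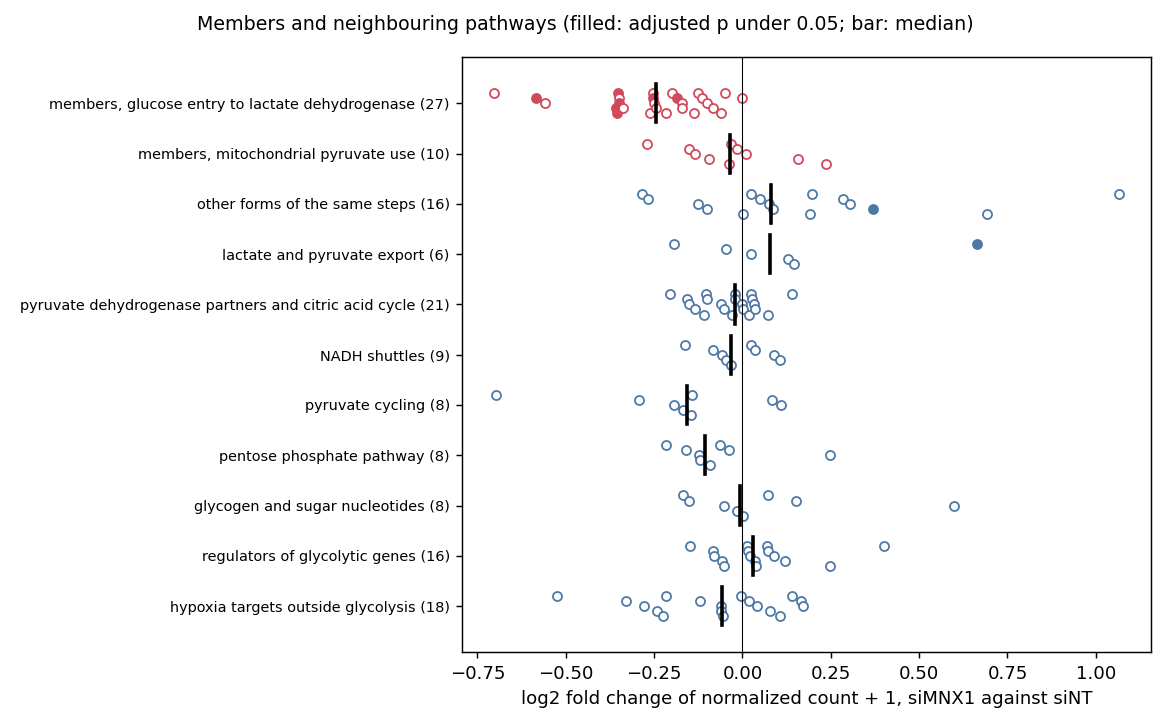
Log2 fold changes (x axis, siMNX1 against siNT) of the members (red, in 2 rows) and of 9 lists of adjoining pathways (blue), with the number of genes in brackets; points are genes, filled where the adjusted p was under 0.05, and black bars are medians. The median is -0.24 for members from glucose entry to lactate dehydrogenase and -0.04 for mitochondrial pyruvate use, and the filled blue points are PKLR and SLC16A7.

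Chromosome 12 holds 6 of the 37 members, of which GAPDH, TPI1, ENO2 and LDHB fell and TIGAR and PFKM were not called. TPI1 and ENO2 are separated by 42.8 kb. Among 27 tested genes within 250 kb of TPI1, limma called 1 lower, which was ENO2, and 0 higher, and the median log2 fold change was -0.02. Within 250 kb of GAPDH, 0 of 23 tested neighbours were called, where 3.32% of all genes tested were. The 3 tested neighbours of LDHB had a median of 0.28 and the 4 of G6PC2 one of -0.25, with 0 called around either gene. Several members have pseudogenes whose near-identical sequence can share reads, and GENCODE names 62 for GAPDH, 13 for PGAM1, 6 for LDHA, 5 for PKM, 4 for ENO1, 4 for TPI1 and 3 for LDHB. The levels of these genes are to that extent uncertain. The listed pseudogenes summed to 227 normalized counts for TPI1, 213 for ENO1, 89.1 for GAPDH, 13.3 for LDHA and 9.14 for PGAM1 (mean over the 6 libraries), small beside their parent genes.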

How the data were processed

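Total RNA of 6 EndoC-βH1 libraries, 3 per group, was sequenced with rRNA depletion, per the labels' protocols. The submitters' processing notes name the genome build GRCh38, DESeq2 1.26.0 with R 3.6.3, and, for reads, RSEM 1.3.1 beside STAR 2.7.6a. The authors deposited normalized counts, a signal per gene scaled between libraries. For the annotation release, a low-value filter and the strand setting, nothing is given in the sources used here. Whole reads could not be recovered, since 25.8% to 47.4% of values under 10 lay within 0.02 of a whole multiple, so no count test was run and depth is unknown. The file named 14738 of 16792 genes by symbol, and a gene table named 2019 more.

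Values were taken as log2(normalized count + 1), which understates changes of low genes. Genes needed a mean of at least 5, which removed 0 genes. Groups were compared with limma 3.58.1 (moderated variance with trend, R 4.3.3), with Benjamini-Hochberg adjustment over all genes and a threshold of 0.05. The script was tested on simulated data. Ratios of related members were compared with exact two-sided permutation tests. Levels per kilobase used the longest principal transcript of GENCODE 29. Alternatives covered the pseudocount, filters, TMM scaling (the trimmed mean of M-values, written out in R with its usual trims), equal totals, the variance model, a replicate block and each library left out, and 1 was added after seeing the data: the library of highest mitochondrial share removed from each group. Over all genes tested, same-numbered libraries did not deviate together (correlations of -0.01, -0.01 and -0.04). Within the 37 members no such correlation was computed. There replicate 1 was most often the highest library in both groups, in 21 members for siNT and 20 for siMNX1.

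The members and lists were chosen with earlier results of these data known. Every listed member is described by step, with values per library for those of unadjusted p under 0.05 and the most abundant of each step. From each adjoining list, all genes past the threshold are named or, where none passed, the 2 most abundant. Other members with values per library fall outside this rule and were chosen after their values were seen.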

Additional observations from a re-analysis of the deposited data

How the results depend on the processing

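The median log2 fold change of the members stayed below 0 under each setting tried, from -0.23 to -0.13 with each library left out. Changing the pseudocount, the filter, the scaling or the robustness of the variance model left 5 to 7 members lower. Without a variance trend, 1 member fell (LDHB), with 131 of all genes higher and 60 lower. The replicate numbers only name libraries; with the number as a replicate block, 4 members fell (G6PC2, GPI, ENO1 and LDHB), with 162 genes higher and 75 lower. With each library left out, 2 to 4 members fell, with 133 to 257 genes higher and 65 to 179 lower; fewer samples enter these fits. Without siNT replicate 2 and siMNX1 replicate 3 together, 0 members fell, with 96 genes higher and 27 lower. At an adjusted p under 0.1, 627 genes were higher and 482 lower, and at an unadjusted p under 0.05, 1647 and 1437, with 13 members lower. No member rose in any of these fits.

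Some values that were not called changed sign, and the cause was not tested. With each library left out, log2 fold changes ran from -0.3705 to 0.1409 for HK2, -0.1627 to 0.0096 for PFKFB4, -0.3327 to 0.0376 for TIGAR, -0.0517 to 0.058 for BPGM, -0.1019 to 0.0079 for PKM, -0.0698 to 0.0295 for MPC1, -0.0378 to 0.0217 for PDHB and -0.0749 to 0.0709 for PC. Outside the members they ran from -0.015 to 0.0128 for IDH2, -0.0478 to 0.0106 for PYGB, -0.0345 to 0.085 for VEGFA and -0.0368 to 0.0274 for ERO1A. Log2 ratio differences ran from -0.1713 to 0.1199 for LDHB to LDHA, -0.1102 to 0.0721 for ENO2 to ENO1, -0.0863 to 0.1112 for PFKM to PFKL, -0.0758 to 0.0416 for MPC2 to MPC1 and -0.0085 to 0.2791 for PGM2 to PGM1. BPGM was at 0.0013 under TMM scaling. Without siNT replicate 2 and siMNX1 replicate 3 together, TIGAR was at 0.1667, BPGM at 0.0156, PDHB at 0.0073 and PDHX at 0.0003. Read depth is unknown, so what it limits cannot be given.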
